A study of Mus musculus with 8 samples.

Results

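Nrep encodes the neuronal regeneration related protein, a small and largely unstructured protein first described in neurons. It was followed here as 1 gene of the 21207 gene symbols that the matrices of all 8 libraries share. The gene was chosen by its summed UMI level, which was lower in Old than in Young muscle in both library systems, so every comparison of Nrep between Old and Young below is a description and carries no test. Nrep (ENSMUSG00000042834) is a protein-coding gene on the minus strand of chromosome 18, from 33437019 to 33464029 on GRCm38, a span of 27011 bases.

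In regenerating nerve, in healing wounds and in motile glioma cells, Nrep is known to rise with cell growth and movement. In fibroblasts it promotes the change to myofibroblasts, the contractile cells that lay down scar. It does so in part by binding a subunit of the translation initiation factor eIF3, which favours translation of the transforming growth factor beta (TGF-beta) ligands. These ligands are secreted in a latent form, are released by integrins and other activators, and signal through membrane receptors to Smad transcription factors.

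The nuclei came from the gastrocnemius, a calf muscle, of wild-type C57BL/6 mice. The 4 groups were Young, Old, middle-aged mice trained on a treadmill (Running) and middle-aged mice kept without training (Sedentary). Each group had 2 libraries, replicate 1 made with 10x Genomics droplets and replicate 2 in another set, which the study's methods give as the droplet system DNBelab C (the second library set in the plots). The labels do not say whether the libraries of a group came from separate animals, so p-values measure only the spread between these libraries.

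The 64803 nuclei retained of 65280 were unevenly deep. The 10x libraries held 10587 to 12991 nuclei with a median of 1664 to 3001 UMIs per nucleus, and the DNBelab set 4228 to 4772 nuclei with a median of 909 to 1689.5. A UMI is a tag that counts each captured RNA molecule once. Pairs of 10x libraries shared 30 to 46 cell barcodes. Old replicate 2 stood apart from the rest, since 71.8% of its nuclei fell in a cluster led by very long genes and 86.7% could not be given a class. Sedentary replicate 1 had 33.3% of its nuclei unnamed, and Young replicate 2 had 55.0%. Class names come from marker genes, and a class holds nuclei that are like the named type.

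Nrep was most abundant in Young muscle and least abundant in Old muscle of the 10x set. Its level is given in CPM, Nrep UMIs scaled to the same total of UMIs in every library or class. It was 13.6 in Old replicate 1 (531 UMIs, 95% Poisson interval 12.5 to 14.8) and 44.1 in Young replicate 1 (1750 UMIs, 42.1 to 46.3). Of the DNBelab libraries, Old was at 23.5 (118 UMIs, 19.5 to 28.2) and Young at 72.8 (660 UMIs, 67.3 to 78.6). All intervals cover counting error only. Both Young libraries lay above both Old libraries, and within each set the Young library was the highest of the 4.

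The middle-aged libraries lay between these ends in the 10x set. Running replicate 1 had 35.9 CPM (1591 UMIs, 34.2 to 37.7) and Sedentary replicate 1 had 22.7 (527 UMIs, 20.8 to 24.7). DNBelab gave Running 28.8 (211 UMIs, 25.1 to 33.0) and Sedentary 23.7 (113 UMIs, 19.6 to 28.5). There the intervals of Running, Sedentary and Old overlapped, and Young stood alone above them.

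**Figure D1:**
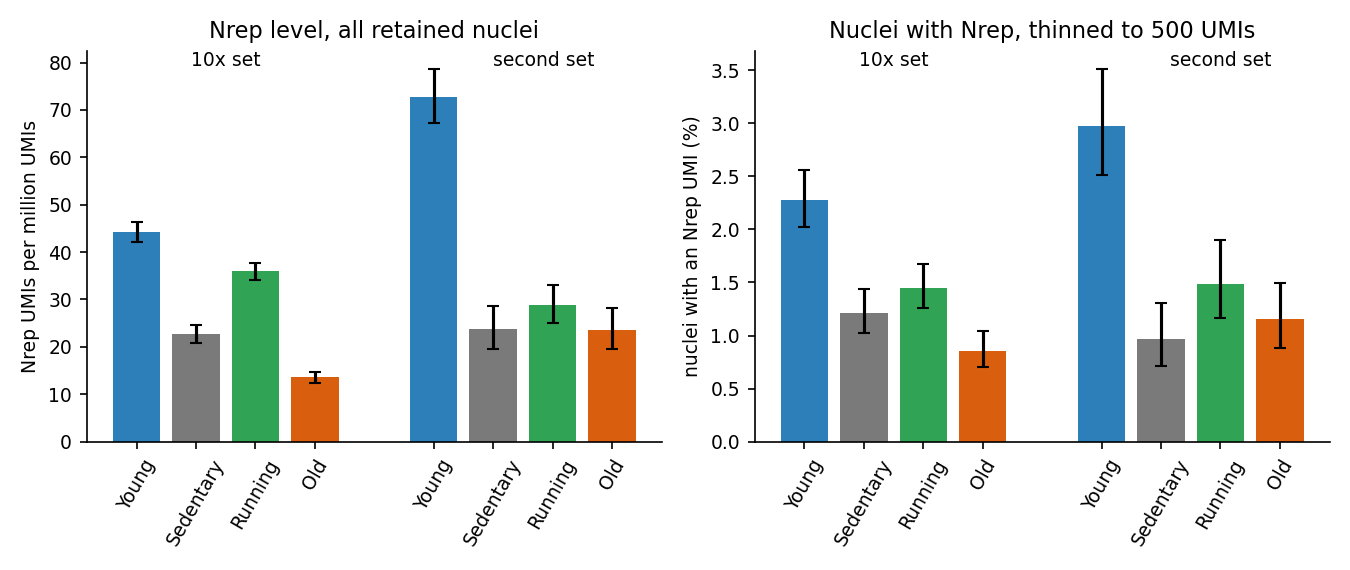
Nrep in the 8 libraries, in CPM over all retained nuclei (left) and as the percentage of nuclei with an Nrep UMI after every nucleus was thinned to 500 UMIs (right). Bars are single libraries and error bars are 95% Poisson (left) and Wilson (right) intervals. Young is the highest bar of each set on both scales, at 44.1 and 72.8 CPM and at 2.27% and 2.97% of thinned nuclei.

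Nrep was detected in a minority of nuclei. At least 1 Nrep UMI was present in 438 nuclei of Old replicate 1 (3.75%) and in 1176 of Young replicate 1 (9.97%). In the DNBelab set these were 102 nuclei in Old (2.14%) and 485 in Young (10.8%). Running and Sedentary had 9.71% and 4.22% in the 10x set and 4.38% and 2.34% in the DNBelab set. Such shares rise with depth, which was lower in the Sedentary than in the Running library of each set. With every nucleus thinned to 500 UMIs Old of the 10x set had 0.856%, Young 2.27%, Running 1.45% and Sedentary 1.21%. For DNBelab they were 1.15%, 2.97%, 1.49% and 0.968% in the same order. The 10x Running and Sedentary intervals (1.26 to 1.67% and 1.02 to 1.44%) overlapped after thinning. Nuclei with several Nrep molecules were rarer still. They made up 0.590% of nuclei in Old replicate 1 and 2.91% in Young replicate 1, where 1 nucleus held 13 Nrep UMIs.

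The fit of all 8 libraries gave Nrep a log2 fold change of -2.09 in Old (SE 0.40), a level 4.27-fold lower. The gene was chosen on this contrast, so the value is not set against 0. The difference of log2 levels was -1.70 in the 10x set (3.25-fold lower) and -1.63 in the DNBelab set (3.09-fold lower). Nrep ranked 12 from the lowest fold change of 20309 genes. In the whole contrast edgeR called 0 genes at an adjusted p of 0.05 (0% of 20309), with 556 at an unadjusted p under 0.05, and DESeq2 called 0. The median log2 fold change of all genes was 0.19 with TMM scaling and 0.61 without. Relative to that median Nrep stood at -2.28 with either scaling.

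Between Running and Sedentary, which did not enter the choice of the gene, Nrep had a log2 fold change of 0.52 (SE 0.39, interval -0.38 to 1.42). It was higher in Running in both sets, by 1.58-fold in the 10x set and 1.22-fold in the DNBelab set. The difference did not pass the test (edgeR unadjusted p 0.219, adjusted p 1.0), and the interval includes 0. In that contrast edgeR called 0 of 20309 genes (0%), with 98 at an unadjusted p under 0.05, and DESeq2 called 0. Leaving out Running replicate 1 brought the log2 value to 0.15 and leaving out Running replicate 2 brought it to 0.82.

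Nrep was present in most nuclear classes of muscle, and its level differed widely among them. The classes with the highest level were muscle stem cells (MuSC), the quiescent Pax7-positive cells that rebuild fibres, and tenocytes, the fibroblasts of tendon. In MuSC of the 10x set Nrep had 122 CPM within the class in Old (89 UMIs), 224 in Young (251 UMIs), 106 in Running (74 UMIs) and 188 in Sedentary (33 UMIs). Nrep was seen in 19.4%, 29.9%, 13.5% and 18.1% of MuSC nuclei in the same order. Tenocytes had 95.8 in Old, 236 in Young and 149 in Running. Only 9 tenocyte nuclei were found in Sedentary, none with an Nrep UMI, which allows a share of up to 33.3%. No MuSC or tenocyte class was named in the DNBelab set, so these levels have no replicate library within a group.

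Immune nuclei were taken as a measure of background, which rests on few Nrep UMIs in each library. Macrophage, T cell and B cell nuclei together had 4.43 CPM in Old (9 UMIs, 2.02 to 8.40) and 4.50 in Young (5 UMIs, 1.46 to 10.5). They had 10.7 in Running (9 UMIs, 4.89 to 20.3) and 12.4 in Sedentary (3 UMIs, 2.56 to 36.2). These intervals overlapped, so a difference between the libraries was not shown. The share of immune nuclei with an Nrep UMI was 1.20%, 1.19%, 2.05% and 1.85%. Macrophage nuclei of Old were deeper than MuSC nuclei, with a median of 2319.5 against 1734 UMIs. At 500 UMIs per nucleus Nrep was seen in 24 of 335 MuSC nuclei of Old (7.16%) and in 0 of 581 macrophage nuclei.

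**Figure D2:**
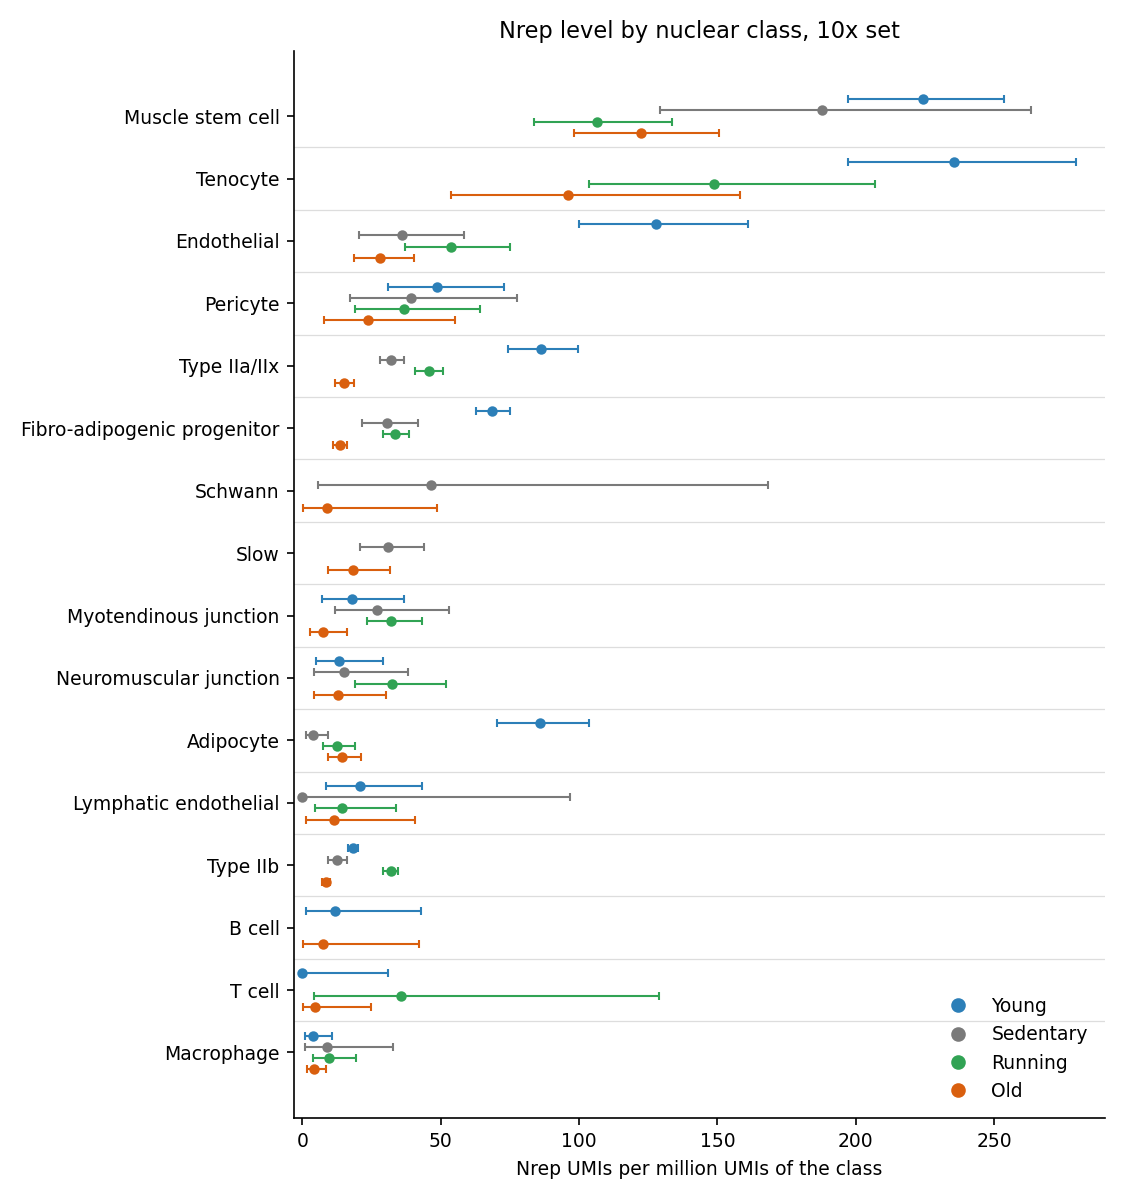
Nrep level in CPM of each nuclear class in the 10x set, with classes from the highest to the lowest mean log2 level. Points are single libraries with at least 20 nuclei of the class and bars are 95% Poisson intervals. MuSC and tenocytes reach 224 and 236 in Young, and macrophages stay below 10 in all 4 libraries.

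Among the vascular classes, endothelial nuclei were at 28.1 CPM in Old, 128 in Young, 53.6 in Running, then 36.0 in Sedentary. Pericytes, which wrap capillaries, had 23.6, 48.6, 36.7 and 39.4 in the same order, with intervals that overlapped. Lymphatic endothelial nuclei held between 0 and 7 Nrep UMIs per library, too few to order the libraries.

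Fibro-adipogenic progenitors (FAPs), the Pdgfra-positive stromal cells that make muscle matrix, had 13.6 CPM in Old (117 UMIs), 68.7 in Young (465 UMIs), 33.6 in Running (203 UMIs) and 30.5 in Sedentary (38 UMIs). The FAP class was made up of several clusters, and Nrep differed among them. In the cluster led by Col6a6, Col15a1 and Bmp5 it had 22.8 in Old, 103 in Young, 31.8 in Running, then 28.8 in Sedentary. In the cluster led by Gpc6 and Hmcn1 it had 9.92, 50.7, 40.3 and 38.9 in that order. In the cluster led by Dpp4 and Pi16, markers of FAPs around vessels and fascia, it had 2.97, 29.8, 24.6 and 9.63 (2 UMIs in Sedentary). The Dpp4 and Pi16 cluster was thus the lowest of the 3 in each library, and Old was the lowest library in each of the 3.

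Adipocyte nuclei differed most plainly between Young and the other libraries. They had 85.8 CPM in Young (107 UMIs), 14.4 in Old (26 UMIs), 12.3 in Running (20 UMIs) and 3.97 in Sedentary (5 UMIs). The Sedentary level was below that of immune nuclei in the same library (12.4, 3 UMIs, 2.56 to 36.2). The Running level was close to that of immune nuclei of Running (10.7, 9 UMIs, 4.89 to 20.3). Neither adipocyte level can be told from background.

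In the myonuclei of the 10x set, Type IIa/IIx nuclei carried more Nrep than Type IIb nuclei in each library. Type IIa/IIx nuclei, which express Myh2 or Myh1, had 14.9 in Old (76 UMIs), 86.2 in Young (184 UMIs), 45.7 in Running (316 UMIs) and 32.1 in Sedentary (217 UMIs). Type IIb nuclei, which express Myh4, had 8.36 in Old (123 UMIs), 18.2 in Young (390 UMIs), 31.8 in Running (563 UMIs) and 12.4 in Sedentary (54 UMIs). The Type IIb interval in Old (6.95 to 9.98) overlapped that of immune nuclei (2.02 to 8.40), and in Sedentary it included the immune level. Slow nuclei, which express Myh7, had 18.1 in Old and 30.9 in Sedentary, and the other 10x libraries held fewer than 20 of them.

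The Type IIa/IIx class was held mainly by its Myh2-led cluster in Old (808 of 1142 nuclei) and mainly by its Myh1-led cluster in Young (475 of 603), Running and Sedentary. Within the Myh2-led cluster Nrep had 15.2 in Old, 128 in Young, 39.5 in Running, then 31.7 in Sedentary. Within the Myh1-led cluster it had 14.0, 75.2, 48.4 and 32.4 in the same order. Both clusters gave the same order of libraries as the class. In the Type IIb cluster led by Myh4 and Pfkfb3 it had 7.97 in Old, 19.2 in Young, 35.0 in Running, then 13.3 in Sedentary. Running was the highest library there, as in the class.

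At the specialised sites of the fibre, myotendinous junction nuclei, which express Col22a1, had 7.43 in Old, 17.9 in Young, 32.0 in Running, then 26.9 in Sedentary. Neuromuscular junction nuclei, which lie under the motor nerve ending, had 12.9, 13.3, 32.5 and 14.96. These rest on 4 to 43 Nrep UMIs per library, and in neuromuscular junction nuclei all intervals overlapped.

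Ordered by mean log2 level in the 10x set, MuSC (160 ± 55.3, SD, n = 4 libraries) and tenocytes (160 ± 70.6, n = 3) came first, then endothelial nuclei (61.4 ± 45.6, n = 4 as for those that follow), pericytes (37.1 ± 10.3), Type IIa/IIx (44.7 ± 30.4) and FAPs (36.6 ± 23.1). Schwann, slow, myotendinous junction, neuromuscular junction, adipocyte and lymphatic endothelial nuclei followed. Type IIb (17.7 ± 10.3) came before B cells, T cells and macrophages (6.57 ± 3.08). No pair of neighbours passed the test (exact two-sided permutation test within libraries, adjusted p 1.0 for each), which cannot go below 0.125 with 4 libraries or 0.25 with 3 and so could not show a difference. By their values, tenocytes exceeded endothelial nuclei by 1.38 ± 0.47 (SD) on the log2 scale in 3 of 3 libraries, and Type IIa/IIx exceeded FAPs by 0.24 ± 0.18 in 4 of 4. The other neighbours compared in 3 or more libraries changed sign between libraries. MuSC exceeded endothelial nuclei by a mean of 1.56 on the log2 scale, higher in 4 of 4 libraries (exact p 0.125, the smallest possible).

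The DNBelab set gave levels for fewer classes, on fewer UMIs. Type IIa/IIx nuclei had 15.2 in Old (3 UMIs), 48.2 in Young (113 UMIs), 27.5 in Running (28 UMIs) and 23.4 in Sedentary (16 UMIs). Type IIb nuclei had 50.1 in Young (29 UMIs), 27.4 in Running (130 UMIs) and 21.4 in Sedentary (65 UMIs). Old held only 57 Type IIb nuclei with no Nrep UMI, which allows a share of up to 5.26%. Slow nuclei had 21.6 in Old (1 UMI), 69.7 in Young (42 UMIs), 24.9 in Running and 26.9 in Sedentary. Young was the highest of the 4 libraries in these 3 fibre classes, but not in the other myonuclei. Myotendinous junction nuclei were at 18.1 in Young, 31.3 in Running and 49.3 in Sedentary, and neuromuscular junction nuclei at 37.0, 55.4 and 29.2, with no Nrep UMI in Old for either. Myonuclei marked by Runx1 were at 44.1 in Old and 26.6 in Young. These levels rest on 2 to 9 Nrep UMIs each.

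Much of the Nrep in Young replicate 2 lay in an unnamed cluster led by Myl3, Mb, Tnnc1 and other short, abundant muscle transcripts. That cluster held 760 nuclei of Young and 47.4% of that library's Nrep UMIs, at 188 CPM. Its level was 62.4 in Old (267 nuclei), 59.5 in Running and 71.3 in Sedentary. Without it, a comparison added after the data were seen, Old was at 20.5, Young at 46.9, Running at 28.0 and Sedentary at 23.0. The fitted log2 difference between Old and Young was then -1.86. In the cluster led by long genes, which filled most of Old replicate 2, Nrep had 20.4 in Old and 68.5 in Young. In the cluster led by Peg3, an imprinted gene, it had 20.5 in Old, 41.0 in Young, 43.4 in Running (11 UMIs) and 11.8 in Sedentary (1 UMI).

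**Figure D3:**
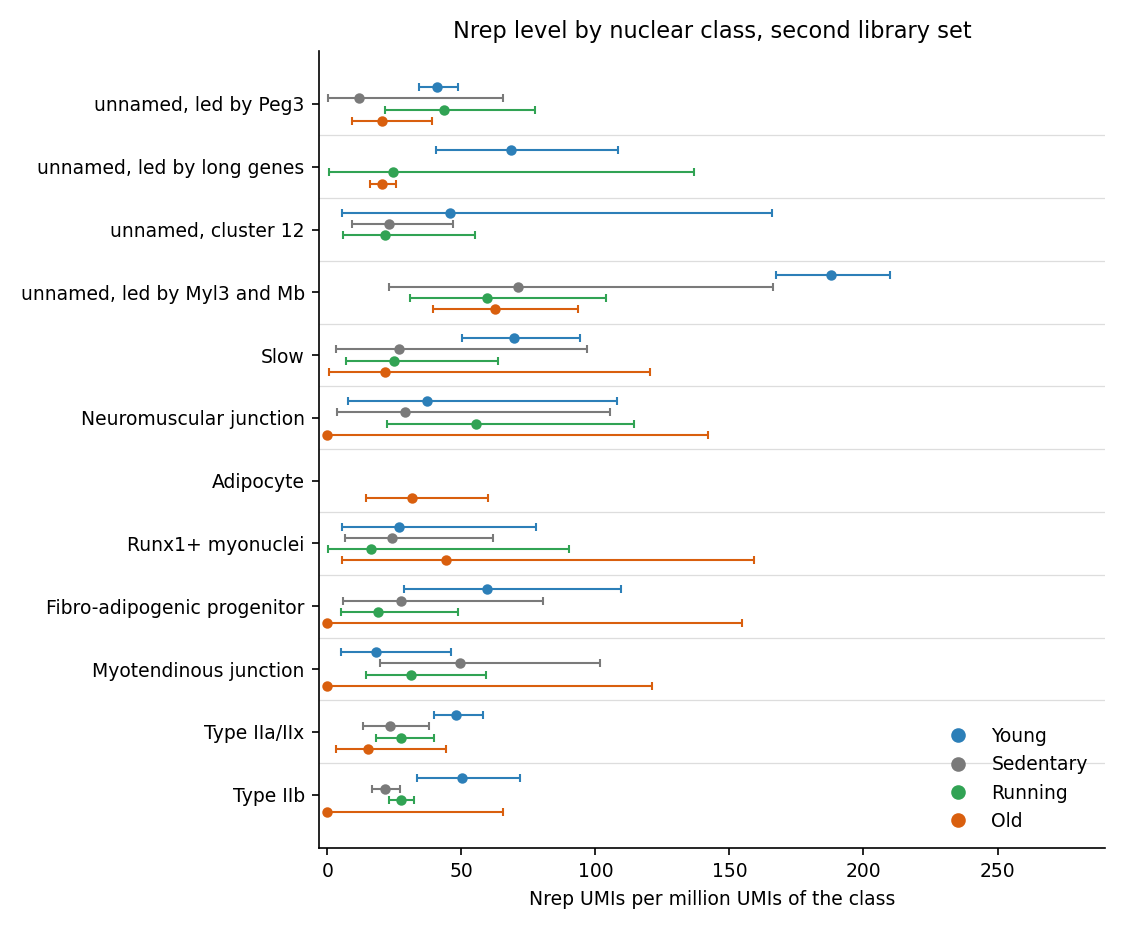
Nrep level in CPM of each named class and unnamed cluster in the DNBelab set. Points are libraries with at least 20 nuclei and bars are 95% Poisson intervals. The cluster led by Myl3 and Mb in Young stands at 188, and most other intervals overlap between libraries.

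Across both sets, 6 classes could be set against each other in 15 pairs, a comparison also added after the data were seen. Type IIa/IIx exceeded Type IIb by a mean of 0.76 ± 0.78 (SD) on the log2 scale, higher in 7 of 8 libraries (exact permutation p 0.0234, adjusted p 0.117). FAPs exceeded Type IIb by 0.72 in 7 of 8 libraries (exact p 0.0312, adjusted p 0.117). Slow nuclei exceeded Type IIb by 0.92 in 6 of 6 libraries and FAPs by a mean of 0.29 in 6 of 6 (exact p 0.0312 for both, the smallest possible with 6 libraries, adjusted p 0.117). In Old replicate 2 FAP and Type IIb nuclei held 0 Nrep UMIs, Slow nuclei 1 and Type IIa/IIx nuclei 3. There FAPs stood above Type IIb only through the 0.5 UMI added before logs and the class sizes. The other differences of that library rest on these few UMIs. None of the 15 pairs passed after adjustment.

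Old was lower than Young in most classes. These class ratios divide the UMIs by which the gene was chosen, so they are no independent support for that choice. Of 14 named classes compared in the 10x set, 12 were lower in Old, and 7 of the 14 had counting intervals that held 1. In the DNBelab set 6 of 7 intervals held 1. There 6 of 7 classes were lower in Old, 4 of them with no Nrep UMI in Old. The exception was the Runx1+ myonuclei, with a ratio of 1.66 (0.139 to 14.5). The ratio of Old to Young is given for the 10x classes with the most Nrep UMIs. It was 0.168 in adipocytes, 0.172 in Type IIa/IIx, 0.197 in FAPs and 0.219 in endothelial nuclei. In tenocytes the ratio was 0.407, in Type IIb 0.459 and in MuSC 0.545. In neuromuscular junction nuclei it was 0.970 (0.234 to 3.82) and in macrophages 1.14 (0.261 to 6.86), on 11 and 10 Nrep UMIs.

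A library level joins how many nuclei of each class were captured with how much Nrep each held. With the make-up of 11 classes held the same in every 10x library, Old was at 15.6, Young at 54.2, Running at 36.2 and Sedentary at 26.8. In the DNBelab set 7 classes put Old at 5.74, Young at 48.7, Running at 27.4 and Sedentary at 23.8, but the Old value rests on 7.73% of its nuclei.

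Within classes, the difference between Running and Sedentary was tested in those fits where Nrep passed the filter on low counts. In Type IIb nuclei the log2 fold change was 0.88 (SE 0.42, interval 0.012 to 1.74), which did not pass after adjustment (edgeR unadjusted p 0.0471, adjusted p 1.0). That fit called 1 of 13834 genes (0.00723%). Leaving out single libraries moved the value from 0.29 to 1.36, the lower end without Running replicate 1 and the upper end without Running replicate 2. The ratio was 2.56 in the 10x set (counting interval 1.93 to 3.45) and 1.28 in the DNBelab set (0.941 to 1.75). The Sedentary level behind the ratio of 2.56, 12.4 CPM (9.35 to 16.2), had the same value as immune nuclei in that library. The immune value rests on 3 Nrep UMIs (2.56 to 36.2), so it is a loose measure of background there. Over all classes, 7 of 11 ratios of the 10x set and 7 of 7 of the DNBelab set had intervals that held 1, and Running was the lower in 2 of the 11 and 4 of the 7.

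In Type IIa/IIx nuclei the log2 fold change was 0.36 (SE 0.34, interval -0.40 to 1.11, edgeR unadjusted p 0.320, adjusted p 1.0), with 0 of 12766 genes called (0%) and 269 at an unadjusted p under 0.05. In FAPs it was -0.03 (SE 0.60, interval -1.20 to 1.14, edgeR unadjusted p 0.962, adjusted p 1.0), with 6 of 10350 genes called (0.058%). These intervals are wide, and neither shows that Nrep was alike in Running and Sedentary. In the fits of myotendinous junction nuclei (0 of 5291 genes called, 0%) and neuromuscular junction nuclei (1 of 4367, 0.0229%) Nrep did not pass the filter and was not tested.

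**Figure D4:**
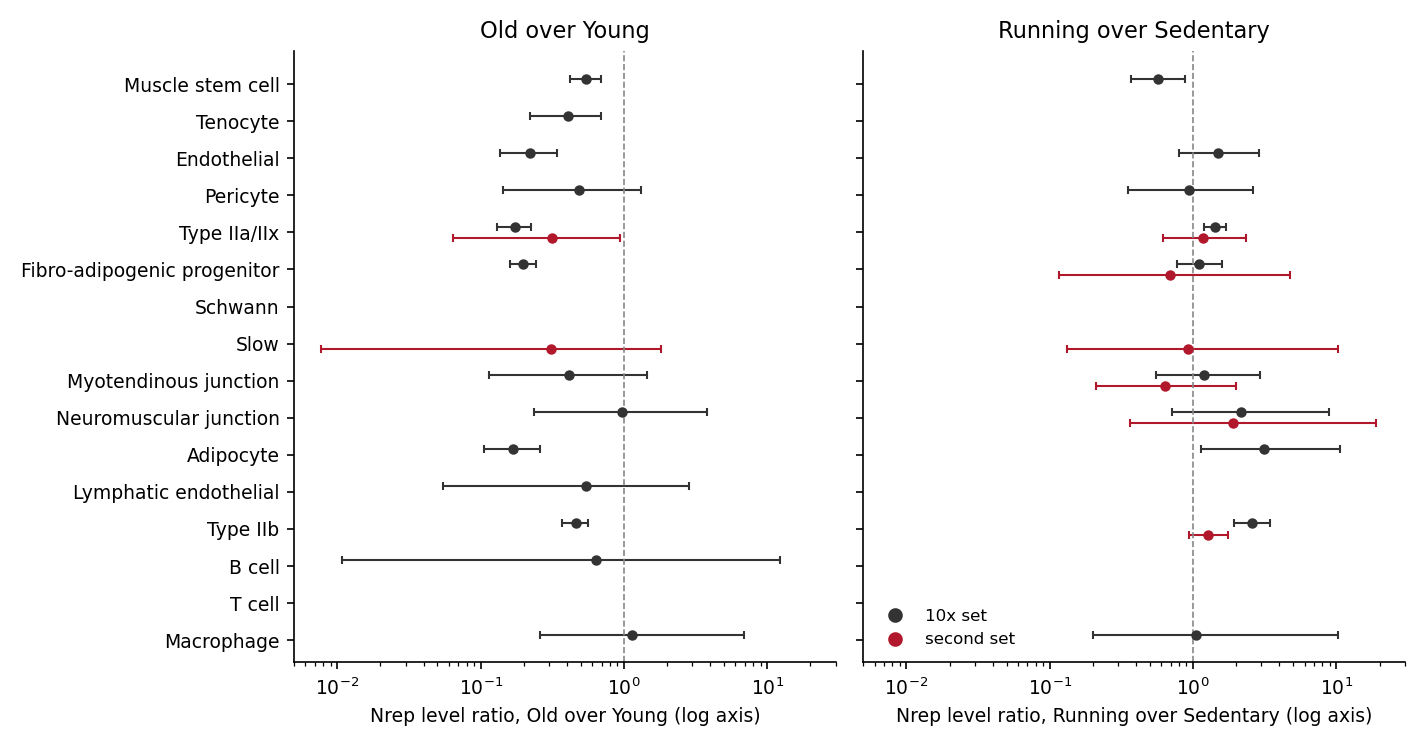
Ratio of the Nrep level in Old over Young (left) and in Running over Sedentary (right) by nuclear class, on a log axis. Points are ratios of 1 library to 1 other in the 10x set (dark) or the DNBelab set (red), bars are 95% counting intervals and the dashed line marks a ratio of 1. On the left most points lie below 1, from 0.168 in adipocytes. On the right Type IIb lies at 2.56 and 1.28. Ratios with a level at 0 and Runx1+ myonuclei are not drawn.

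Genes detected together with Nrep were sought inside each class of the 10x set by the odds of detecting a gene in nuclei with an Nrep UMI against nuclei without. The odds ratios were taken within strata of UMI count, because nuclei with Nrep were deeper, for example with a median of 2539 against 2065.5 UMIs in FAPs of Old. They are given on the log2 scale as the lowest and the highest library, without a test, since nuclei of a library are not replicates.

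In FAPs, 526 of 4425 genes (11.9%) had log2 odds ratios above 0 in all 4 libraries and 235 (5.31%) below 0. Enpp1, an enzyme that makes pyrophosphate outside the cell, ran from 0.54 to 1.47. It was detected in 24.1% of FAP nuclei with Nrep and 9.22% without in Old, and in 15.3% and 8.59% in Young. Fap, the fibroblast activation protease, ran from 0.52 to 0.75 and was detected in 82.8% against 69.7% in Old and 85.4% against 76.2% in Young. The collagen genes Col4a1, of basement membrane, and Col6a3, of the matrix around cells, ran from 0.52 to 0.99 and from 0.40 to 1.56. L3mbtl3, a reader of histone methylation, Cluh, Cped1 and Csgalnact1, an enzyme of chondroitin sulfate synthesis, completed the 8. The genes least often seen with Nrep were Cmah (-1.51 to -1.12), the ligand Bmp6 (-1.21 to -0.76), Opcml (-0.98 to -0.64) and Efemp1 (-1.33 to -0.63). Opcml and Efemp1 were among the 10 leading genes of the Dpp4 and Pi16 cluster, the FAP cluster with the least Nrep. In a coarser clustering (resolution 0.5) Col6a3 was among the leading genes of the FAP cluster with the most Nrep. That cluster had 43.7 CPM, against 16.6 in the Dpp4 and Pi16 cluster. The part of these clusters in the odds ratios was not tested, and the genes named for FAPs are only the ends of the spread.

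In MuSC, 243 of 3940 genes (6.17%) lay above 0 in all 4 libraries and 220 (5.58%) below, so that genes above 0 were hardly more common than genes below, and the genes named next are only the ends of that spread. Ackr3, a scavenging receptor for the chemokine Cxcl12, ran from 0.78 to 2.73. It was detected in 24.6% of MuSC nuclei with Nrep and 14.4% without in Old, and in 10.3% and 6.04% in Young. Vcam1, an adhesion molecule of quiescent MuSC, ran from 0.57 to 1.25, at 36.9% against 21.5% in Old and 46.5% against 34.6% in Young. Cops5, a subunit of the COP9 signalosome, ran from 0.60 to 1.06 and Rybp, a Polycomb component, from 0.57 to 1.68. Ndufaf2, Arhgef18, Ctdspl and Ccdc91 followed. The Sedentary values rest on 25 nuclei with Nrep.

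**Figure D5:**
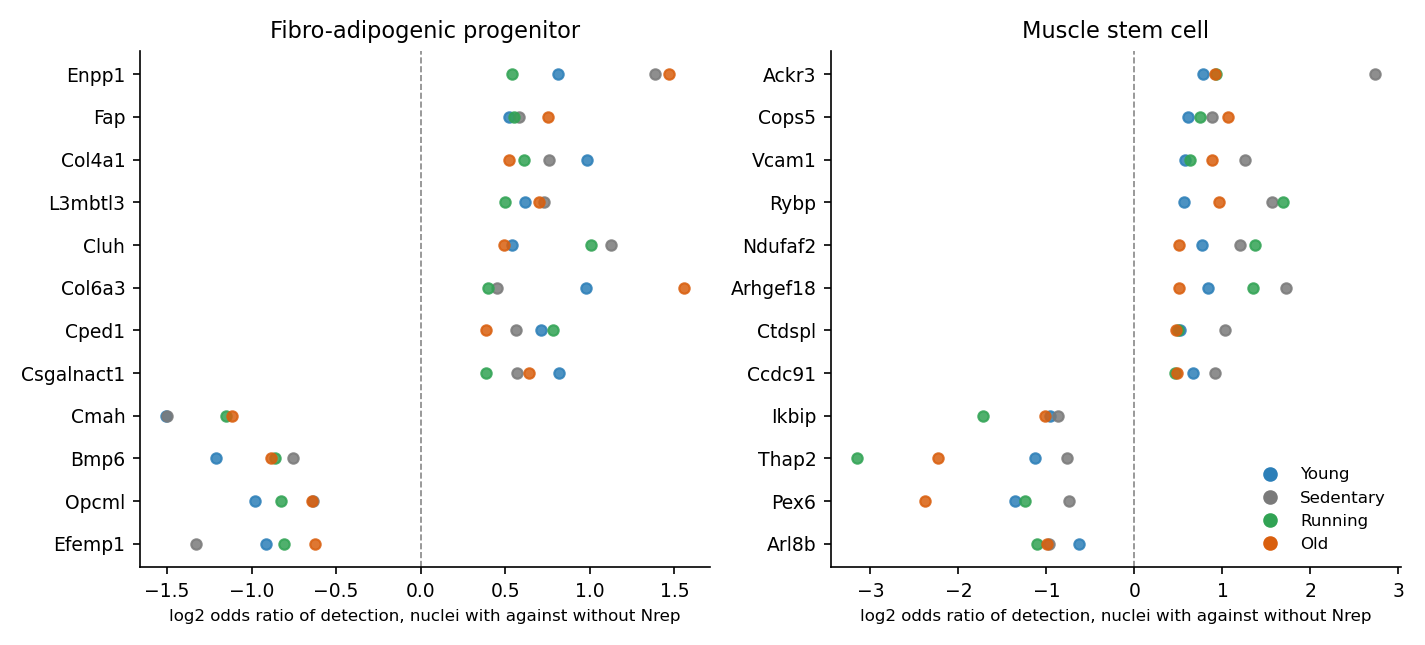
Log2 odds ratio of detecting each gene in nuclei with an Nrep UMI against nuclei without, in FAPs (left) and MuSC (right) of the 10x set. Points are single libraries and the dashed line marks equal odds. The upper 8 genes lie above 0 and the lower 4 below 0 in all 4 libraries, by the rule that chose them, with Enpp1 from 0.54 to 1.47 and Ackr3 from 0.78 to 2.73.

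Endothelial nuclei had enough Nrep in 3 libraries, where 672 of 4814 genes (14.0%) lay above 0 in each and 561 (11.7%) below. These shares are close, and a sign shared by 3 libraries is easier to reach than one shared by 4. The genes named next are only the ends of that spread. The highest were Afg3l1 (1.22 to 2.0), the sialyltransferase St8sia4 (1.17 to 1.79), Wdr43, which acts in ribosome assembly (1.06 to 2.80), the Wnt co-activator Bcl9 (1.06 to 1.97) and Tcf15, a transcription factor of capillary endothelium (1.05 to 1.72). These rest on 27 to 44 nuclei with Nrep per library.

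Myonuclei were examined in the same way. In Type IIa/IIx nuclei 383 of 5018 genes (7.63%) lay above 0 in all 4 libraries and 258 (5.14%) below. The highest were Fam91a1 (0.52 to 0.81), the homeobox gene Pknox2 (0.42 to 0.80), Arhgap6 (0.41 to 1.48) and Agbl1 (0.41 to 1.68). In Type IIb nuclei 379 of 4879 (7.77%) lay above 0 and 296 (6.07%) below. The general transcription factor subunit Gtf2e2 (0.48 to 0.58) came first there. Pygo1, of Wnt signalling (0.37 to 0.64), and Pank1, of coenzyme A synthesis (0.34 to 0.89), followed. In both classes the named genes are only the ends of the spread. Of the genes above 0 in all MuSC libraries, 27 were so in FAPs as well, which is 11.1% of the MuSC genes and 5.13% of the FAP genes, no more than the 11.9% and 6.17% over all genes compared in FAPs and in MuSC.

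Mixed nuclei were checked beside these values. In FAPs of Running 25.5% of nuclei with Nrep were among the highest doublet scores, against 10.1% of those without. In FAPs of Old it was 12.6% against 7.05%, in Young 9.72% against 8.70% and in Sedentary 6.90% against 8.98%. In MuSC it was 20% against 12.2% in Old, 10.97% against 11.5% in Young, 20% against 15.6% in Running and 24.0% against 11.5% in Sedentary. Endothelial nuclei had 18.5% against 15.3% in Old, 20.5% against 12.5% in Young and 10.0% against 12.8% in Running. The 6 tenocyte markers took 1.88 UMIs per 10000 in FAP nuclei with Nrep of Old and 0.62 in those without. It was 1.12 against 0.42 in Young, 0.46 against 0.54 in Running and 0.34 against 0.65 in Sedentary. The 6 Type IIb markers were higher in FAP nuclei with Nrep in each library. They took 65.7 against 40.9 in Old, 32.7 against 31.8 in Young, 63.6 against 46.1 in Running and 64.2 against 59.8 in Sedentary. The part of mixed nuclei in the odds ratios was not tested beyond leaving out the 6% of nuclei with the highest doublet scores. With the highest doublet scores left out, all 8 leading genes stayed above 0 in the 4 libraries of FAPs, Type IIa/IIx and Type IIb. That setting left only 3 libraries for MuSC, where all 8 did, and 2 for endothelial nuclei, where 7 did, so the criterion was easier to meet. With every nucleus thinned to 1000 UMIs, which left 3 libraries, 4 of 8 did in FAPs, 4 in MuSC, 6 in Type IIa/IIx and 3 in Type IIb.

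Genes whose levels ran across the 16 classes of the 10x set most like those of Nrep were found by Pearson r of log2 levels. The classes share libraries and depth, so r is given as a description. Of 13518 genes compared, 14 had r above 0.8, and the median was 0.086. Adgra3, an adhesion receptor, had 0.89 and was highest in MuSC, at 165 CPM there, 72.9 in tenocytes and 19.0 in Type IIb. Fgd1, an activator of the small GTPase Cdc42, had 0.89 and was highest in tenocytes. Klf9, a hormone-responsive transcription factor, had 0.84, the homeobox gene Hoxa10 had 0.82, and the circadian repressor Nr1d1, Zbtb20 and Garem1 each had 0.82. Cox7a2, Steap2 and the laminin gene Lama3 each had 0.81. Over the 8 classes of the DNBelab set Adgra3 had 0.62, Lama3 0.37 and Hoxa10 0.31, and the other 7 ran from -0.56 to -0.015.

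The genes of TGF-beta signalling, through which Nrep is known to act, were taken as lists by role. Their members were called in neither contrast, where the share called over all genes was 0%. Among the 3 ligands, Tgfb2 had 64.6 to 188 CPM across libraries and a log2 fold change of 0.01 (SE 0.47) in Old and -0.22 (SE 0.46) in Running. Tgfb1 had 1.06 (SE 0.64) in Old and Tgfb3 had 0.21 (SE 0.46). The median of the ligands was 0.21 in Old and -0.15 in Running, against 0.19 and -0.04 over all genes tested.

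The 9 genes of ligand storage and release had a median of 0.60 in Old and 0.13 in Running. Itgb6, the integrin subunit that frees latent TGF-beta, was at 165 CPM in Old replicate 1 and 352 in Young replicate 1, and at 206 and 431 in replicates 2. Its log2 fold change was -1.48 (SE 0.41), not called (edgeR adjusted p 0.693). Ltbp3, which binds the latent ligand, had -0.30 (SE 0.38) and Ltbp1 had 0.67 (SE 0.36). The 5 receptors had a median of 0.07 in Old and -0.08 in Running, with Tgfbr3, the co-receptor betaglycan, at 0.07 (SE 0.41), Tgfbr1 at -0.61 (SE 0.43) and Tgfbr2 at -0.44 (SE 0.37) in Old.

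The 7 Smads and Smad repressors had a median of -0.05 in Old and -0.08 in Running, with Smad3, which carries the signal to the nucleus, at -0.05 (SE 0.34) in Old and Smad4, its partner, at -0.53 (SE 0.43). Of 11 target and myofibroblast genes 10 were tested, with a median of 0.08 in Old and 0.29 in Running. The fibrillar collagen Col3a1 had 139 CPM in Old and 319 in Young in the 10x set, and 20.2 and 7.83 in the DNBelab set, so the sets ran in opposite directions. Its log2 fold change was -0.57 (SE 0.91). Col1a2 had -0.94 (SE 0.66), and fibronectin, Fn1, had 0.16 (SE 0.44). Of the 5 target genes compared inside FAPs, 1 (Col3a1) had a log2 odds ratio above 0 in all 4 libraries, 1 lay below 0 in all 4 and the other 3 changed sign. Over all genes compared in FAPs, 11.9% lay above 0 and 5.31% below 0 in all 4. Col3a1, the 1 target gene compared in MuSC, lay above 0 there in all 4, as did 6.17% of all genes compared in MuSC. With so few target genes, these counts do not show that target genes go with Nrep more often than other genes.

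The 13 subunits of eIF3, the translation factor that Nrep binds, had a median of -0.55 in Old and 0.20 in Running, all uncalled. Eif3a had -0.28 (SE 0.51) in Old, Eif3j1 had -0.48 (SE 0.38) and Eif3h had -0.57 (SE 0.35). The 15 genes of denervated and regenerating fibres had a median of 0.36 in Old and -0.70 in Running. Musk, the kinase of the neuromuscular junction, had a log2 fold change of -1.24 (SE 0.45) in Running, at 27.9 CPM in Running and 113 in Sedentary for 10x libraries, and at 101 and 160 for DNBelab libraries. It was not called (edgeR adjusted p 1.0). Hdac4, which mediates the response to lost nerve input, had -0.83 (SE 0.34) in Old, and Ncam1 had 0.16 (SE 0.38).

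The genes around Nrep were listed as well. Within 500 kb lie Camk4, Stard4, Epb41l4a and the noncoding genes 2310026I22Rik and Epb41l4aos, none called in either contrast. 2310026I22Rik overlaps Camk4 on the opposite strand, so their counts are uncertain. Epb41l4a had a log2 fold change of 0.83 (SE 0.65) in Old, Epb41l4aos -0.27 (SE 0.55) and Stard4 0.85 (SE 0.98). Camk4, a calcium-dependent kinase gene of 256298 bases, had 84.8 CPM in Old replicate 2, the library filled by long genes, and 3.79 to 13.1 in the other 7. That library was also the highest for Epb41l4a (57.9, others 7.77 to 31.9), 2310026I22Rik (11.97, others 0.14 to 1.81) and Stard4 (8.98, others 0.41 to 2.71), but not for Epb41l4aos. Stard4 spans only 14508 bases, and a part of gene length in these values was not tested.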

How the data were processed

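What the authors deposited is 1 filtered matrix per library, 8 in all, of raw counts of UMIs. Per the submitters' processing notes the tools were Cell Ranger 6.1.2 and Seurat 4.1.1 on mm10, and the header of the DNBelab matrices names PISA. Whether intronic reads were counted is not given in the sources used here. As in the study's methods, a nucleus was retained if it had over 200 genes, below 6000 genes and less than 6% of counts from mitochondria, and then the 12 mitochondrial genes and 98 genes of ribosomal proteins were removed. Levels are CPM of the remaining UMIs.

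Each set was clustered on its own without Nrep (scanpy 1.11.5, leidenalg 0.10.2, 2000 variable genes, 30 components, 20 neighbours, resolution 1.0) and named from 19 marker lists. Naming limits were chosen with the clusters in view. Doublets were kept. Scrublet worked in 3 libraries only (2.61% to 5.00% marked), so an alternative removed, per library, the top 6% of doublet scores. The members and lists were chosen with earlier results of these data known.

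Counts summed per library, or per library and class with 20 or more nuclei, were fitted with edgeR 4.0.16 (R 4.3.3, quasi-likelihood F-test, TMM, filterByExpr, Benjamini-Hochberg, 0.05) with terms for group (4 levels) and library set. DESeq2 1.42.0 was an alternative. Tested on counts simulated for Running against Sedentary, edgeR recovered 3 of 99 genes changed by 1 on the log2 scale, 4 of 50 changed by 2 and 28 of 50 changed by 4, with 5 false calls of 20141 genes. Class levels take logs after 0.5 UMI was added and were compared by flipping the sign of within-library differences. Odds ratios are Mantel-Haenszel ratios over 10 strata of UMI count, for genes detected in 5% of nuclei of every library, in classes with 25 nuclei with Nrep. Between 32 and 163 genes per class with no defined ratio in some library were left out after values were seen. Likeness used log2 of the level plus 1 for genes at 10 or more in a class.

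Named genes were Nrep, the genes within 500 kb, up to 3 of each list by mean level, the 8 highest and 4 lowest of a class by odds ratio and the 10 most alike in class profile. The comparison of all class pairs over both sets and the fits without the Myl3-led cluster were added after the data were seen. Coordinates are from GENCODE on GRCm38. The sequence of Nrep and the values of another Type IIb cluster are not reported here.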

Additional observations from a re-analysis of the deposited data

Results flagged for a closer look

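In the 10x set the ratio of Running to Sedentary ran in opposite directions between nuclear classes, with counting intervals on either side of 1. In MuSC it was 0.567 (interval 0.372 to 0.883, 74 and 33 Nrep UMIs), in Type IIa/IIx nuclei 1.42 (1.19 to 1.70, 316 and 217 UMIs), in Type IIb nuclei 2.56 (1.93 to 3.45, 563 and 54 UMIs) and in adipocytes 3.11 (1.13 to 10.6, 20 and 5 UMIs). Each ratio sets 1 library against 1 other, and the difference between classes was not tested. The adipocyte levels, 12.3 and 3.97 CPM, lay within the intervals of immune nuclei in the same libraries. Those were 10.7 in Running (4.89 to 20.3) and 12.4 in Sedentary (2.56 to 36.2). The Type IIb level of Sedentary, 12.4 CPM (9.35 to 16.2), had the same value as immune nuclei there, which held 3 Nrep UMIs. Of the 11 classes compared in the 10x set, the other 7 had intervals that held 1, as did 7 of 7 in the DNBelab set, where Running was the lower in 4. In the DNBelab set no MuSC class was named, and the ratios of Type IIa/IIx and Type IIb were 1.18 (0.615 to 2.33) and 1.28 (0.941 to 1.75).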

How the results depend on the processing

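Of 163 alternative values, 135 stayed with the reported result, 24 moved and 4 turned direction. For Nrep, holding class make-up the same put Old minus Young at a log2 of -1.80 (10x) and -3.08 (DNBelab), mean -2.44. The DNBelab value rests on 7.73% of the nuclei of Old replicate 2. Over all alternatives the log2 difference between Old and Young ran from that mean of -2.44 to -1.67, the latter being the fit without TMM. With single libraries left out it ran from -2.38 to -1.82. The log2 difference between Running and Sedentary stayed above 0, from 0.15 to 0.82, with edgeR or DESeq2 adjusted p from 0.819 to 1.0. The FAP value between Running and Sedentary, near 0, turned to 0.0077 without TMM, 0.021 without Old replicate 1, 0.050 without Running replicate 2 and 0.029 without Sedentary replicate 2, and ran from -0.40 to 0.050 with single libraries left out.

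Genes called between Old and Young numbered 4 with only the 4 libraries compared and 0 to 8 with single libraries left out. Between Running and Sedentary they numbered 82 with only 4 libraries and 0 to 418 with single libraries left out, 418 of them without Sedentary replicate 2. Nrep was called in none of the Running and Sedentary fits. The cause was not tested.

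The share of nuclei with Nrep in Old minus Young, -6.22 percentage points for the 10x libraries and -8.62 for the DNBelab libraries, was -1.42 and -1.82 at 500 UMIs per nucleus, -3.05 and -4.29 at 1000 UMIs, and -2.32 and -2.48 for 2 or more Nrep UMIs. Running minus Sedentary, 5.49 and 2.04, was 0.237 and 0.522, 1.33 and 0.759, and 1.24 and 0.142 in the same order. Fewer UMIs per nucleus, or more per call, lower these shares by construction.

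Of the 8 leading genes of a class, those above 0 in every usable library numbered 4 in MuSC, 4 in FAPs and 3 in Type IIb at 1000 UMIs per nucleus, and 5 in Type IIa/IIx and 4 in Type IIb with 2 or more Nrep UMIs. Of the 10 genes alike in class profile, 1 had r above 0.5 in the DNBelab set. No paired analysis was possible because the labels carry no replicate numbers and number 1 or 2 names only the library set, which is a term of the fit. Without that term the log2 values were -2.11 and 0.50. With 1 library of each system per group, few Nrep UMIs in rare classes and most of Old replicate 2 unnamed, class levels in the DNBelab set could show only large differences.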
